A study of Tachysurus fulvidraco x Tachysurus vachelli with 6 samples.

Results

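The transcript levels of 7 genes annotated to the steps of sterol synthesis after lanosterol were examined in the liver of hybrid yellow catfish (Tachysurus fulvidraco female × Pseudobagrus vachellii male). They are called the 7 enzymes here, although the place of ebpl in the route rests on sequence likeness and the deposited pathway label. The genes tm7sf2, msmo1, nsdhl, hsd17b7, ebpl, sc5d and dhcr7 were chosen by name, with earlier results of these data known. The paper names steroid biosynthesis among the top pathways enriched between the same groups. All 7 genes were found among the 28288 genes of the deposited table. Juvenile fish were fed Acanthopanax senticosus, a shrub also called Siberian ginseng, at 0 g/kg diet in the C_Liver group or at 4 g/kg diet in the T_Liver group for 56 days, and were starved before their livers were taken. Poly(A) RNA was sequenced in 3 libraries per group. The text of the study says that RNA was mixed within each group before library preparation, and it does not give the number of fish behind a library, so n counts libraries and P values measure the spread between libraries.

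Animal cells make cholesterol from acetyl-CoA. The early enzymes build and fold a chain into lanosterol, and the late enzymes then remove methyl groups from the ring, move a double bond and reduce the remaining ones. When membranes are short of sterol, transcription factors of the SREBP family raise the transcription of most genes of the route together, and the liver is a main site of this synthesis. The roles given here for single enzymes were established mainly in mammals and yeast.

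Each gene lay on a scaffold of its own in the deposited annotation. The study aligned to the T. fulvidraco genome without naming its build, and the submitters' notes name only mm8, a mouse build, so the build of these coordinates could not be stated. The gene tm7sf2 (gene ID 113650239) lay on NW_020847888.1 from 3486722 to 3491098. The gene msmo1 (113660724) lay on NW_020848046.1 from 554849 to 559184. The gene nsdhl (113647795) lay on NW_020847827.1 from 773093 to 781385. These 3 were on the minus strand, as were hsd17b7 (113647617) on NW_020847825.1 from 1180446 to 1188132 and sc5d (113634971) on NW_020848170.1 from 1799360 to 1805656. On the plus strand were ebpl (113648777) on NW_020847857.1 from 8796098 to 8799124 and dhcr7 (113646762) on NW_020847812.1 from 2752260 to 2765522. The 7 genes shared no scaffold, and 0 of them overlapped another listed gene. The table listed 8 transcripts for msmo1 and 1 or 2 for each of the others, and it placed all 7 in the KEGG pathway of steroid biosynthesis.

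In every one of these enzymes the fitted level was lower in T_Liver than in C_Liver, and 3 of 7 (msmo1, hsd17b7 and ebpl) met the criteria for a differentially expressed (DE) gene. A DE gene differed by 1 or more on the log2 scale, with an unadjusted P below 0.05 in edgeR's quasi-likelihood test. Among all 11521 tested genes, 3.11% were DE genes in either direction, 1.61% were DE genes at a lower level in T_Liver and 1.49% were DE genes at a higher level. The median log2 fold change (T_Liver relative to C_Liver) was -1.48 over the 7 enzymes and -0.0047 over all tested genes, of which 50.4% had a fitted value below 0. The smallest adjusted P of the 7 in edgeR was 0.676. edgeR gave 0 of the 11521 genes an adjusted P under 0.05 and 765 genes an unadjusted P under 0.05, while DESeq2 gave 38 genes an adjusted P under 0.05. Without C_Liver 3, the median of the 7 was -0.17 and 5 of 7 were lower in T_Liver.

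**Figure D1:**
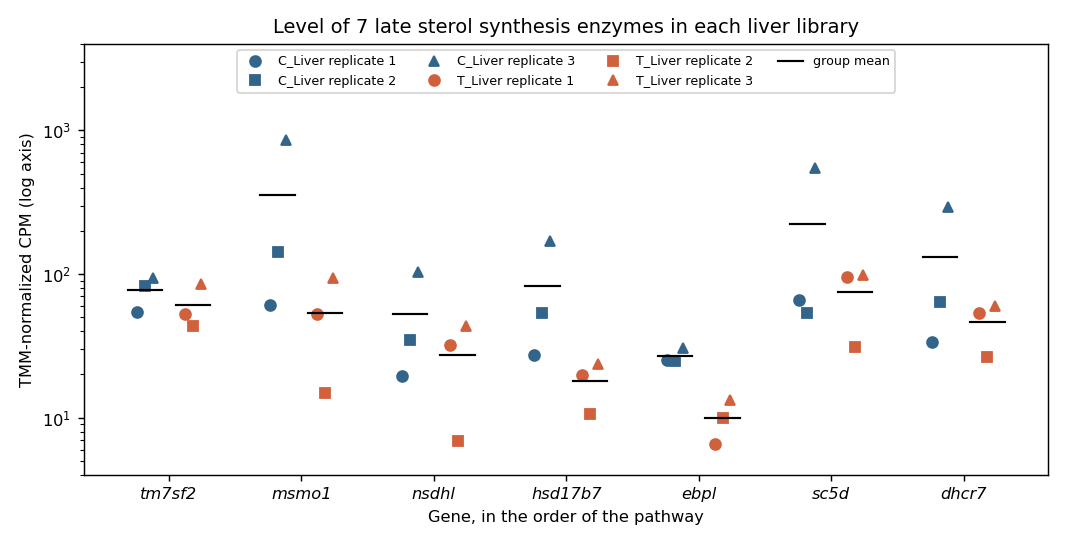
Transcript level (TMM-normalized CPM, log axis) of the 7 enzymes in pathway order, with 1 point per library and a bar at each group mean. The triangle of C_Liver 3 stands above the other control points for msmo1, nsdhl, hsd17b7, sc5d and dhcr7, and the groups are apart for hsd17b7 and ebpl.

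Levels are given as CPM, the reads of a gene relative to all counted reads of the library (counts per 1000000) after scaling by edgeR's TMM factors. The first of the 7 to act is tm7sf2, a sterol reductase that removes the double bond left by the loss of the first methyl group. Its level was 54.7, 82.6 and 93.9 CPM in C_Liver 1, 2 and 3, and 52.3, 43.4 and 85.6 CPM in T_Liver 1, 2 and 3. The groups overlapped, with T_Liver 3 above 2 of the 3 control libraries. The mean was 77.1 ± 20.1 CPM in C_Liver and 60.4 ± 22.3 CPM in T_Liver (SD, n = 3 each). With a log2 fold change of -0.35 (SE 0.35, edgeR P = 0.342, adjusted P = 0.795, exact permutation p = 0.3), tm7sf2 was not a DE gene.

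The next 3 enzymes act together on the methyl groups of the fourth ring carbon. The oxidase msmo1 starts their removal. It was measured at 60.9, 143 and 862 CPM in C_Liver and at 53.1, 14.9 and 93.6 CPM in T_Liver, in the order of the replicate numbers. C_Liver 3 was above every other library, T_Liver 2 was below every other, and T_Liver 3 was above C_Liver 1, so the groups overlapped. Group means were 355 ± 441 and 53.9 ± 39.4 CPM (SD, n = 3 each), with an SD above the mean in C_Liver. The log2 fold change of msmo1 was -2.72 (SE 1.07, edgeR P = 0.0374, adjusted P = 0.676, exact permutation p = 0.2), the largest in size of the 7. Without C_Liver 3, the log2 fold change of msmo1 was -0.90 and it was no longer a DE gene. It also missed the P threshold without T_Liver 1 (-2.68) and without T_Liver 2 (-2.26).

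The dehydrogenase nsdhl removes the oxidized carbon. Its level was 19.4, 34.7 and 104 CPM in C_Liver and 32.0, 6.92 and 43.5 CPM in T_Liver. T_Liver 3 was above C_Liver 1 and 2, and T_Liver 2 stood below all other libraries. The log2 fold change was -0.94 (SE 0.78, edgeR P = 0.269, adjusted P = 0.763, exact permutation p = 0.5), so nsdhl was not a DE gene. Without C_Liver 3 its fitted value was 0.038, in the opposite direction.

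The reductase hsd17b7 restores the hydroxyl group on the ring after that step. It reached 27.2, 53.4 and 169 CPM in C_Liver, against 19.96, 10.6 and 23.5 CPM in T_Liver. Every T_Liver library was below every C_Liver library, although the gap between the nearest of them, T_Liver 3 and C_Liver 1, was small beside the range within C_Liver. Group means were 83.1 ± 75.3 CPM and 18.04 ± 6.67 CPM (SD, n = 3 each), and the log2 fold change was -2.20 (SE 0.68, edgeR P = 0.0133, adjusted P = 0.676, exact permutation p = 0.1). A p of 0.1 is the smallest that the exact permutation test of 3 libraries against 3 allows. Without C_Liver 3 the log2 fold change of hsd17b7 was -1.15, and it was still a DE gene. Of all tested genes, 7.10% had every T_Liver library below every C_Liver library and 5.96% had every T_Liver library above, and 2 of the 7 enzymes did, hsd17b7 and ebpl.

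The protein of ebpl resembles the isomerase ebp, which moves a ring double bond. In human, ebpl has no established isomerase activity, so its place in the route rests on sequence likeness and on the deposited pathway label. Its level was 25.4, 24.7 and 30.5 CPM in C_Liver and 6.57, 9.98 and 13.3 CPM in T_Liver. Control libraries lay close together, with the highest 1.23-fold above the lowest, and the highest T_Liver library was well below the lowest of them. Group means of ebpl were 26.9 ± 3.18 CPM and 9.94 ± 3.35 CPM (SD, n = 3 each), a 2.70-fold difference (log2 fold change -1.43, SE 0.30, edgeR P = 0.00187, adjusted P = 0.676, exact permutation p = 0.1). It had the smallest edgeR P of the 7, and DESeq2 gave it an adjusted P of 0.0209. In all 17 alternative settings, library omissions included, ebpl was a DE gene, with log2 fold changes from -1.70 to -1.19. The lowest count of any of the 7 was that of ebpl in T_Liver 1, at 273 (95% exact Poisson interval 242 to 307, counting error only). The interval takes each count as an independent read and is too narrow if reads were counted more than once. On that assumption, counting error was small beside the spread between libraries.

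Lathosterol oxidase, sc5d, adds a ring double bond late in the route. It was measured at 65.6, 53.6 and 552 CPM in C_Liver and at 94.9, 31.3 and 98.9 CPM in T_Liver. Only C_Liver 3 was above all 3 treated libraries, and T_Liver 1 and T_Liver 3 were both above C_Liver 1 and C_Liver 2. The log2 fold change was -1.58 (SE 0.94, edgeR P = 0.137, adjusted P = 0.690, exact permutation p = 0.6), and sc5d was not a DE gene. Without C_Liver 3 its log2 fold change was 0.34, so that its direction turned as well.

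The reductase dhcr7 turns 7-dehydrocholesterol, also the precursor of vitamin D, into cholesterol. Its level was 33.5, 64.4 and 294 CPM in C_Liver and 53.5, 26.4 and 60.0 CPM in T_Liver. C_Liver 3 was again the highest library and T_Liver 2 the lowest, while C_Liver 1 lay below T_Liver 1 and T_Liver 3. The log2 fold change of dhcr7 was -1.48 (SE 0.78, edgeR P = 0.0982, adjusted P = 0.676, exact permutation p = 0.4), which missed the DE criteria. It was -0.057 without C_Liver 3, and it was -1.94 without C_Liver 1, where dhcr7 met the criteria.

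**Figure D2:**
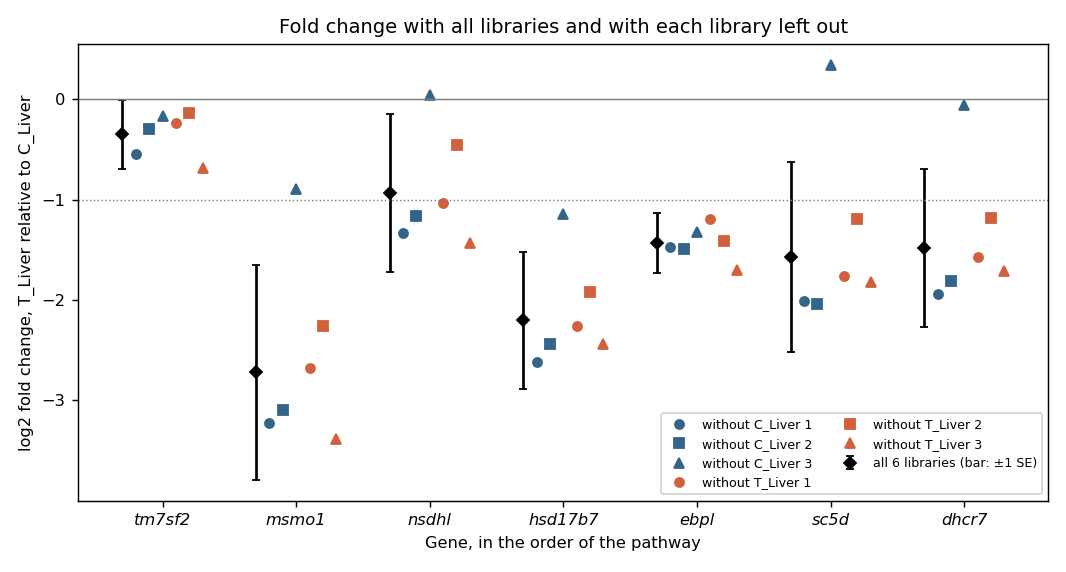
log2 fold change (T_Liver relative to C_Liver) of each enzyme with all 6 libraries (black diamond, bar of 1 SE) and with each library left out in turn (coloured points). Leaving out C_Liver 3 moved msmo1 from -2.72 to -0.90 and sc5d from -1.58 to 0.34, and it moved ebpl only from -1.43 to -1.32. The dotted line marks a log2 fold change of -1.

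Much of the spread of these enzymes lay between libraries of one group. The level in C_Liver 3 was 9.27-fold that of the mean of C_Liver 1 and 2 for sc5d, 8.46-fold for msmo1, 6.01-fold for dhcr7, 4.19-fold for hsd17b7 and 3.84-fold for nsdhl. For tm7sf2 the ratio was 1.37 and for ebpl 1.22. The median of this ratio over all tested genes was 0.969, and the first 5 enzymes lay between percentiles 98.1 and 99.5 of all tested genes. T_Liver 2 differed the other way, with 0.183 times the mean of T_Liver 1 and 3 for nsdhl, 0.203 for msmo1, 0.323 for sc5d, 0.465 for dhcr7 and 0.488 for hsd17b7. The ratio was 0.629 for tm7sf2 and 1.01 for ebpl, where the median of all tested genes was 0.992. With both C_Liver 3 and T_Liver 2 left out, a setting chosen after seeing the data, only ebpl of the 7 was a DE gene, and the median log2 fold change was 0.040.

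Which library was highest depended in part on the scale. On TMM-normalized CPM all 7 were highest in C_Liver 3. On CPM from total counts and on the deposited FPKM values 5 of 7 were, with tm7sf2 then highest in T_Liver 3 and ebpl in C_Liver 1. How many of all tested genes were highest in C_Liver 3 was not computed. T_Liver 2 was the lowest library for 6 of 7 on all 3 scales, the exception being ebpl, which was lowest in T_Liver 1. The within-group SD of log2 CPM was 1.68 for msmo1, 1.48 for sc5d, 1.33 for nsdhl, 1.22 for dhcr7 and 1.03 for hsd17b7, at percentiles 92.0 to 96.9 of all tested genes. It was 0.46 for tm7sf2 and 0.38 for ebpl, at percentiles 59.6 and 45.8, so ebpl had the smallest spread within groups of the 7.

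Levels of different genes were compared by FPKM, which divides by transcript length. The mean FPKM over the 6 libraries was highest for msmo1 (93.0), followed by sc5d (49.2), tm7sf2 (42.3), dhcr7 (39.1), hsd17b7 (35.2), nsdhl (16.4) and ebpl (14.5). The ranges over libraries of every neighbouring pair in this order overlapped. The order msmo1 above sc5d held in 4 of 6 libraries, sc5d above tm7sf2 in 2 of 6, and nsdhl above ebpl in 3 of 6. In T_Liver 2 msmo1 (6.74 FPKM) was at rank 6 of 7 while tm7sf2 (24.4 FPKM) ranked first, and in C_Liver 3 msmo1 (366 FPKM) ranked first and tm7sf2 (49.3 FPKM) was at rank 5. Between the lowest and the highest library, the CPM of msmo1 varied 57.9-fold and that of tm7sf2 2.17-fold. All 7 were well expressed, at percentiles 79.5 to 94.97 of the mean FPKM of tested genes.

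**Figure D3:**
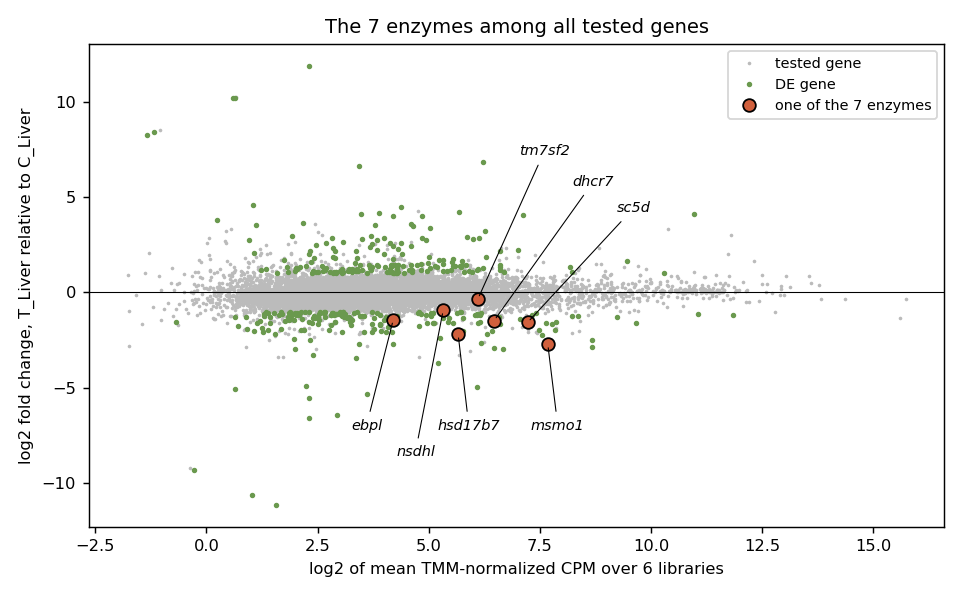
log2 fold change (T_Liver relative to C_Liver) against the log2 of mean TMM-normalized CPM for the 11521 tested genes (grey), the 358 DE genes (green) and the 7 enzymes (red, named). All 7 lie below 0, from -2.72 for msmo1 to -0.35 for tm7sf2.

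Correlations between the enzymes differed from pair to pair. The Pearson correlation of log2 CPM over the 6 libraries had a median of 0.887 in the 15 pairs without ebpl (range 0.666 to 0.978) and of 0.554 in the 6 pairs with ebpl (range 0.413 to 0.759). Without C_Liver 3 the medians were 0.816 (range 0.330 to 0.938) and 0.304 (range -0.15 to 0.70). These correlations are a description, since all pairs share the same libraries and their depth. The profile of msmo1 came closest to the mean of the 11 genes of the route up to lanosterol (r = 0.987), followed by dhcr7 (0.971), hsd17b7 (0.955), nsdhl (0.922), sc5d (0.916) and tm7sf2 (0.876), with ebpl last (0.650). This order rested on C_Liver 3. Without it tm7sf2 came first (0.972), ahead of msmo1 (0.966), nsdhl (0.908), dhcr7 (0.881), hsd17b7 (0.837), sc5d (0.620) and ebpl (0.471).

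Of the 11514 other tested genes, 135 (1.17%) had a correlation of at least 0.9 with the mean profile of the 7 enzymes. Among the 10 closest were cunh1orf116 (0.999), LOC113644102 (0.991), lss (0.990), LOC113645343 (0.989), LOC113634009 (0.989), hes4 (0.989), ctsh (0.986), ebp (0.984) and fdps (0.981). Of these, lss makes lanosterol, fdps makes an earlier precursor, LOC113634009 is described as the 14-alpha demethylase that acts first on lanosterol, and ebp acts later. LOC113645343 is described as a cytoplasmic acetyl-CoA synthetase. The genes closest to ebpl alone, a list made after its values were seen, were LOC113663926, a primary amine oxidase (0.997), bola3 (0.994), lbh (0.993), anxa2 (0.990) and mief1 (0.985), with no sterol enzyme among them.

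Another 5 genes of the steps after lanosterol are described beside the 7. The demethylase LOC113634009 was measured at 59.0, 103 and 568 CPM in C_Liver and 54.3, 12.1 and 107 CPM in T_Liver, a pattern like that of msmo1. Its log2 fold change was -2.07 (SE 1.02, edgeR P = 0.0809, exact permutation p = 0.3). The isomerase ebp stood at 27.2, 76.4 and 255 CPM against 32.7, 16.2 and 53.0 CPM. Its log2 fold change of -1.81 (edgeR P = 0.0576, exact permutation p = 0.3) missed the P threshold.

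The scaffold protein erg28, which in yeast holds the demethylation enzymes together, was a DE gene. Its level was 29.4, 47.4 and 79.5 CPM in C_Liver and 22.7, 13.9 and 14.95 CPM in T_Liver, without overlap of the groups. The log2 fold change of erg28 was -1.60 (SE 0.41, edgeR P = 0.00509, adjusted P = 0.676, exact permutation p = 0.1), and it was -1.15 without C_Liver 3. Of these steps, 2 genes had a fitted value above 0. LOC113647144, described as the lamin B receptor, a nuclear membrane protein that can take the place of tm7sf2, stood at 2.25 to 7.72 CPM (log2 fold change 0.34, edgeR P = 0.533, exact permutation p = 0.9). The hydroxylase-like faxdc2, a relative of msmo1, stood at 177 CPM in C_Liver 3 and at 293 to 600 CPM elsewhere (log2 fold change 0.22, edgeR P = 0.664, exact permutation p = 0.7), so its lowest library was the one in which msmo1 was highest.

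**Figure D4:**
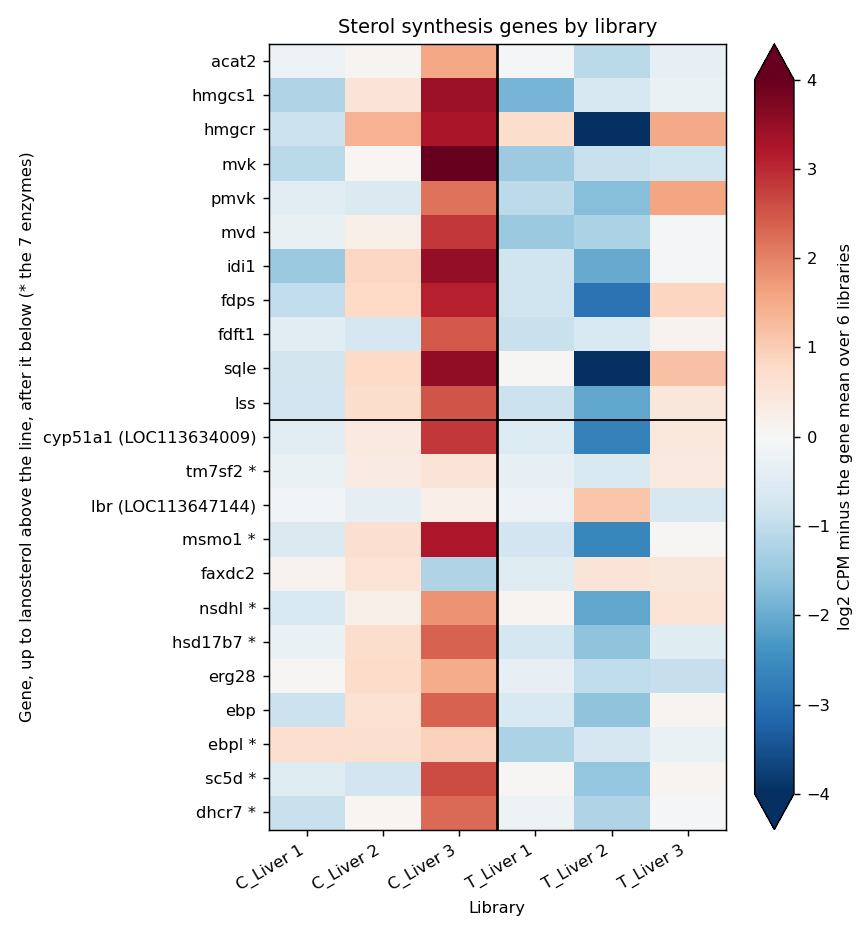
log2 CPM of each gene minus its mean over the 6 libraries, for 11 genes up to lanosterol (above the horizontal line) and 12 genes after it (the 7 enzymes marked with a star), with colours capped at 4 and -4. The column of C_Liver 3 is red in nearly all genes and that of T_Liver 2 is mostly blue. For ebpl (-1.43), hsd17b7 and erg28, every library right of the vertical line lies below every library left of it.

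In the route up to lanosterol C_Liver 3 again stood apart, while T_Liver 2 did so for only part of the genes. T_Liver 1 was the lowest library for hmgcs1, mvk, mvd and fdft1, and T_Liver 2 was the lowest for the others. All 11 genes of that route were fitted lower in the treated group (median -2.07 on the log2 scale), and all 11 were highest in C_Liver 3. The share of all tested genes that were highest in C_Liver 3 was not computed. Of the 11, the DE genes were hmgcs1 (-2.88), mvk (-3.72), mvd (-2.37) and idi1 (-2.92), all at a lower level, as were 1.61% of all tested genes. Groups without overlap were seen in 0 of the 11. Of all tested genes, 7.10% had every T_Liver library below every C_Liver library. None of these 4 was a DE gene without C_Liver 3, without T_Liver 1 or without T_Liver 2. Without T_Liver 3, and in both limma comparisons, only mvd of the 4 was a DE gene. With DESeq2, mvk had no P, and with a replicate block mvk and idi1 missed the P threshold. Without C_Liver 3 their log2 fold changes were -0.66 for hmgcs1, -0.62 for mvk, -0.76 for mvd and -0.82 for idi1.

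Markers of other cells were measured in the same libraries. Summed levels of markers are given here as CPM from total counts, without the TMM factors. None of 19 hepatocyte markers was a DE gene, and their summed level was 109241 to 130417 CPM, so the labelled tissue was plain in every library. The sum does not show that single markers were steady. On TMM-normalized CPM, their level in C_Liver 3 was 0.367 to 12.9 times the mean of C_Liver 1 and 2, and 7 of the 19 were highest in C_Liver 3. Of 22 markers of exocrine pancreas, 17 were DE genes at a higher level in T_Liver, against 1.49% of all tested genes. In 12 of the 22 every T_Liver library was above every C_Liver library, against 5.96% of all tested genes. The summed levels of these markers were 79.2 to 333 CPM in C_Liver and 331 to 1094 CPM in T_Liver. Summed over 10 red blood cell markers, C_Liver 3 had 3797 CPM and T_Liver 2 had 2638 CPM, against 542 to 1074 CPM in the others, and 0 of the 10 was a DE gene. None of 4 leukocyte markers tested (41.2 to 72.2 CPM summed) and 0 of 1 adipocyte marker was a DE gene, and of the defining markers of skeletal muscle 9 of 11 and of intestine 2 of 3 had no read in any library. C_Liver 3 also had the largest share of reads in its 20 most abundant genes, 32.9% against 25.3 to 27.2% elsewhere. The part of these differences in the levels of the 7 enzymes was not tested, and in bulk tissue fewer cells of a type and less RNA per cell cannot be told apart.

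Ratios between enzymes of adjoining or matching steps were compared as FPKM ratios within a library, which do not depend on its scaling. The ratio of nsdhl to msmo1 was 0.273, 0.208 and 0.103 in C_Liver and 0.517, 0.398 and 0.398 in T_Liver, so every T_Liver library was above every C_Liver library. The ratio of sc5d to dhcr7 was 1.48, 0.627 and 1.42 in C_Liver and 1.34, 0.895 and 1.24 in T_Liver, with the groups overlapping. The ratio of ebpl to ebp was 0.890, 0.309 and 0.114 in C_Liver and 0.192, 0.588 and 0.239 in T_Liver, again overlapping. The ratio of tm7sf2 to LOC113647144 was 34.4, 63.7 and 45.0 in C_Liver and 36.0, 11.6 and 78.4 in T_Liver, also overlapping. LOC113647144 stood near the filter limit, at 0.754 to 2.11 FPKM. These ratios are given without a test, and how often the ratios of other gene pairs separate the groups was not computed.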

How the data were processed

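The authors aligned filtered reads with HISAT to the T. fulvidraco genome and deposited, for 28288 genes in 6 libraries, counts and FPKM values. The submitters' processing notes name HISAT2 2.0, StringTie 1.3.0 and Bowtie 0.12.2, with no role, and the mouse build mm8, which is not the genome the paper names. The build of the T. fulvidraco genome is not named. For the counting tool, the strand setting and reads matching more than one gene, the method is not given in the sources used here. Reads shared with near-identical genes could move values. The paper and the labels name different Illumina instruments. Total counts ranged from 44153673 to 51459627. In C_Liver 1, C_Liver 3 and T_Liver 3 they were above the valid reads that the paper lists. A count there was thus not always a separate filtered read, and how this arose is not given.

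Genes whose mean FPKM reached 1 were tested (11521). T_Liver was compared with C_Liver in edgeR 4.0.16 (R 4.3.3; TMM, trended dispersion, quasi-likelihood test, no covariate), with Benjamini-Hochberg adjustment over all tested genes. The DE criteria follow the study, where it is unclear whether P was adjusted. Standard errors came from the F statistics. Exact 2-sided permutation tests were added for single genes, and counting intervals are at 95%. For correlations, log2 CPM used a prior count of 2. Alternatives used DESeq2 1.42.0, limma 3.58.1 on log2(FPKM + 1) and log2(FPKM + 0.1), other scalings and filters, a replicate block and omission of single libraries. The comparison was also run on simulated counts, drawn independently for each gene and library. Such counts do not imitate a library that stands apart for a set of genes.

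The members and lists were chosen with earlier results of these data known. The text names the 7 members, other steps after lanosterol, DE genes of the lists and genes among the 10 most like the members; 1 gene is not reported here. LOC names were matched by deposited description. No promoter or protein sequence was used here.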

Additional observations from a re-analysis of the deposited data

How the results depend on the processing

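All 7 enzymes kept a lower fitted level in T_Liver under every scaling, filter and test tried with all libraries. Of the 7, 3 were DE genes in edgeR with other scalings or filters, 4 in DESeq2 (dhcr7 added) and 2 in limma on log2(FPKM + 0.1), which lost msmo1. DESeq2 gave ebpl an adjusted P of 0.0209 and gave sc5d no P. Leaving out single libraries gave 2 to 4 DE genes among the 7, medians from -1.94 to -0.17 and 248 (without C_Liver 3) to 643 (without T_Liver 2) DE genes in all, where all libraries gave 358. The total was 190 in limma on log2(FPKM + 1), 774 for genes with any count, 175 at a mean FPKM of at least 5 and 521 in DESeq2. Upper quartile scaling gave 239 DE genes lower and 143 higher, against 186 and 172.

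Without C_Liver 3 the direction turned for nsdhl (0.038), sc5d (0.34) and faxdc2 (-0.13), and without T_Liver 2 for LOC113647144 (-0.38). With both left out, chosen after seeing the data, 1 of the 7 was a DE gene, their median was 0.040, and the direction turned for tm7sf2 (0.040), nsdhl (0.51), sc5d (0.73), dhcr7 (0.25), LOC113634009 (0.026), LOC113647144 (-0.16) and faxdc2 (-0.28). In that setting hsd17b7 was no DE gene (-0.86). The cause was not tested. Over the omissions of single libraries, the log2 fold change ranged from -1.43 to 0.038 for nsdhl, -2.04 to 0.34 for sc5d, -0.38 to 0.65 for LOC113647144 and -0.13 to 0.60 for faxdc2.

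The deviations of libraries with the same number from their group means had r = -0.0905, 0.0413 and -0.131. With 3 libraries per group, these values cannot show whether such libraries share more than a number. A fit with the replicate number as a block gave 329 DE genes, 3 of the 7 among them, and a median of -0.995.

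Among these enzymes, the lowest count was 273, for ebpl in T_Liver 1. Its 95% exact Poisson interval was 242 to 307 (counting error only, with each count taken as an independent read). The effect of sequencing depth on the comparison of 3 libraries per group was not tested.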

Other observations

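Genes that sense, take up or dispose of sterol were counted as well. Of 14 genes of sterol sensing and uptake, 12 were fitted lower in T_Liver, against 50.4% of all tested genes. At a lower level 1 of the 14 was a DE gene, against 1.61% of all tested genes. This was ldlr, the receptor that takes up LDL. Its level was 43.7, 118 and 159 CPM in C_Liver and 47.6, 32.1 and 27.4 CPM in T_Liver, where T_Liver 1 was above C_Liver 1 (log2 fold change -1.58, edgeR P = 0.0130, adjusted P = 0.676, exact permutation p = 0.2). In 2 of the 14, neither of them a DE gene, every T_Liver library was below every C_Liver library, against 7.10% of all tested genes. The median log2 fold change of the list was -0.35.

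Of 15 genes of efflux, esterification and bile acid synthesis, 11 were fitted lower, against 50.4% of all tested genes, with a median log2 fold change of -0.15. At a lower level 1 of the 15 was a DE gene and at a higher level 1, against 1.61% and 1.49% of all tested genes. In 1 of the 15, not a DE gene, every T_Liver library was below every C_Liver library, against 7.10% of all tested genes. LOC113659876, described as a relative of the cholesterol exporter abca1, was a DE gene at a higher level, with 70, 90 and 26 reads in C_Liver and 1429, 1238 and 87 reads in T_Liver (log2 fold change 4.12, SE 1.02, edgeR P = 0.00448, exact permutation p = 0.2), so T_Liver 3 lay near the control libraries. LOC113659876 was a DE gene in all 16 alternative settings in which it was tested, from 1.32 to 4.66. It reached the mean FPKM filter only through T_Liver 1 (3.83) and T_Liver 2 (2.97), the libraries where it was high. Its FPKM was at most 0.216 in the others. These settings reuse the same libraries and are no separate support. LOC113647919 is described as a relative of cyp7a1, the rate-limiting enzyme of bile acid synthesis. It had 12, 51 and 1102 reads in C_Liver and 0, 28 and 0 reads in T_Liver. LOC113647919 passed the mean FPKM filter only through C_Liver 3, the library where it was high. Its FPKM was at most 0.431 in the other libraries. LOC113647919 met the DE criteria at an exact permutation p of 0.2, and it missed them in 7 of 16 alternative settings, namely without C_Liver 3, T_Liver 1 or T_Liver 3, in both limma comparisons, with a replicate block and in DESeq2, which gave it no P.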
